A study of Mus musculus with 4 samples.

Results

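Adamts18+ villus tip telocytes were chosen by measured expression, as the 10X cells with at least 1 UMI (unique molecular identifier, 1 captured mRNA molecule) of each of Sox6, Pdgfra and Adamts18. There were 18 such cells among 2547 in 10X library 1 and 178 among 14344 in 10X library 2, 196 of 16891 10X cells in all, and the series holds 17630 cells in 4 libraries. Both 10X libraries were made from the small intestine of wild-type male C57Bl/6 mice labelled as 8 weeks old. The tissue was digested with Liberase TL and sorted for PDPN+ (gp38+) cells negative for CD45, EpCAM and CD31 before capture, and 5 and 76 cells outside the Sox6 Pdgfra gate still had a UMI of Ptprc, the CD45 gene. The other libraries are 2 Smartseq2 plates of 360 and 379 cells, sorted in the same way and integrated by the authors onto the 10X values. The number of mice behind a library is not stated, so the library was the replicate (n = 2). The p-values and standard errors (SE) come from limma, which draws each gene's spread between these libraries towards that of all genes tested. An SE can thus be smaller than the gene's own spread between the libraries. They reflect only spread between these libraries, which may be technical. The 10X cells had a median of 8757 and 6874 UMIs, the libraries shared 7 cell barcodes, and 0 of the members carried a shared barcode.

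Telocytes are fibroblast-like cells with long thin processes that lie under the intestinal epithelium. They express the receptor tyrosine kinase gene Pdgfra and supply BMP and WNT ligands to the epithelium, and those at the villus tip are also wrapped around the capillary there. ADAMTS18 is a secreted metalloprotease of a family that cleaves extracellular matrix proteins, SOX6 is a transcription factor, and fibronectin, encoded by Fn1, is a matrix protein that binds VEGFA, the main growth factor of blood vessels. The comparisons below ask which other genes separate cells with Adamts18 mRNA from their nearest neighbours without it.

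Adamts18 (chr8:113697126-113848738, minus strand, GRCm38) was detected in few cells. The members of 10X library 1 held 32 of 47 Adamts18 UMIs, 68.1% of the library's total, and those of 10X library 2 held 451 of 496, or 90.9%. They held 0.930% and 1.56% of all UMIs of these libraries. Among members, 10 of 18 and 78 of 178 had a single Adamts18 UMI, the lowest value that the rule admits, while the other cells with Sox6 and Pdgfra UMIs had 0. A further 3 and 34 cells had Adamts18 without meeting the Sox6 and Pdgfra parts of the rule. The highest values were 4 UMIs in 10X library 1 and 11 in 10X library 2. These values chose the cells and are given as a description.

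Within the Sox6 Pdgfra gate the members were high in Ednrb and mostly lacked Wif1. All 18 and all 178 carried a UMI of the endothelin receptor gene Ednrb, with a median of 24.5 and 25 Ednrb UMIs per cell, although Ednrb was not part of the rule. An Ednrb UMI was also common in gate cells of like depth without Adamts18, in 77.8% and 79.1% of them. Their level was lower, at 5.99 and 6.29 UMIs per 10000 against 26.5 and 29.95 in the members without Wif1. The WNT inhibitor gene Wif1 was found in 0 of 18 and 4 of 178 members, against 48.9% and 33.6% of those cells of like depth. Of the gate cells with Ednrb and without Wif1, 13.0% (18 of 138, exact 95% interval 7.92 to 19.8) and 12% (174 of 1453, 10.3 to 13.8) had Adamts18. Of the Wif1+ gate cells, 0 of 114 (a limit of 2.63% as 3 cells of the total, or 3.18% as the exact 95% interval), and 0.488% (4 of 820) had it. Outside the gate the shares were 0.133% and 0.292%, and 0 of 76 Ptprc+ cells of 10X library 2 had it (limits of 3.95% and 4.74% by the same 2 measures). At 2000 UMIs per cell, with 1 and 7 shallower cells of the Ednrb+ Wif1- gate left out, the shares there were 3.65% and 5.39%, against 0 of 114 and 0.123% in Wif1+ cells. The intervals and limits cover counting error only.

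Detection rose with depth in 10X library 2 and had no steady order in 10X library 1. With the Ednrb+ Wif1- gate cells of 10X library 2 cut into 4 equal groups by total UMI, the share with Adamts18 went from 9.37% in the shallowest group (median 4849 UMIs) to 14.8% in the deepest (median 11983). In 10X library 1 it was lowest, 2.86%, in the shallowest group and highest, 23.5%, in the group below the deepest. A cell without an Adamts18 UMI may still contain its mRNA, and the cells compared below were matched on total UMI where their number allowed. Sox6 and Pdgfra, which the rule also used, were not higher in members than in the Wif1+ cells. Sox6 stood at 4.59 and 3.43 UMIs per 10000 in members and at 7.0 and 6.17 in Wif1+ cells, and Pdgfra at 21.4 and 23.2 against 30.2 and 33.9.

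The label of villus tip telocyte was checked against the other markers given for it, Fst, Lama5, Npnt, Plau and Kcnk3, and all 5 were detected. Lgr5 (chromosome 10), the gene whose reporter marks villus tip telocytes in mice, was at 0 UMIs in the members. That allows up to 16.7% and 1.69% of members with a Lgr5 UMI, counted as 3 cells of the total, and the whole libraries held only 4 and 6 Lgr5 UMIs in all. The position of a dissociated cell along the villus was not measured.

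Adamts18 and Lama5 are shown by the 250 bases before their start sites (RefSeq, GRCm38.p6), since both transcripts were found together in these cells. Capitals mark the GC box GGGCGG, searched on both strands. The Adamts18 stretch is chr8:113848840-113849089 and the Lama5 stretch chr2:180225860-180226109, both on the minus strand.
Adamts18: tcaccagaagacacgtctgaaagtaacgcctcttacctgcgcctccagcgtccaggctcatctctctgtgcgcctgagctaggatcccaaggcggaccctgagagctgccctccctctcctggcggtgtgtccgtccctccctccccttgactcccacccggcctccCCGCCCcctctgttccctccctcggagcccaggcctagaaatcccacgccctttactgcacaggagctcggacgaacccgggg
Lama5: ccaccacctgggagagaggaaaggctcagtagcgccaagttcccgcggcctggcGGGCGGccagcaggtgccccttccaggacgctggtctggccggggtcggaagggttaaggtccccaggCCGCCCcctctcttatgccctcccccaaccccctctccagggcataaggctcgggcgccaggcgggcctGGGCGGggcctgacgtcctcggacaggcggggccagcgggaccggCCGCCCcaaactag
The Adamts18 stretch held 1 GC box and the Lama5 stretch 4, and TATAAA, searched on both strands, was in neither. A GC box was present in 32.9% of all 27025 such stretches and in 59.1% of the 1278 belonging to tested genes. Among the 74 stretches of genes higher in members than in other Ednrb+ Wif1- cells it was present in 59.5%. The letters ACGTG, the core of the hypoxia response element, searched on both strands, were found in the Adamts18 stretch and not in the Lama5 stretch, and in 12.2% of those 74 and 18.6% of the tested set.

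To find the genes that go with Adamts18, members were compared with 5 Sox6+ Pdgfra+ Adamts18- cells each of nearest total UMI in the same library, 90 and 890 cells. Median depth was 11565.5 against 11471.5 UMIs and 8630 against 8631.5. Of 1717 genes tested with limma, 140 were higher in members (8.15% of those tested) and 178 lower (10.4%) at an adjusted p under 0.05, and all 318 had the same sign in both libraries. The genes with the largest differences were Ednrb, Col6a4, Emid1, Postn, Sparcl1, Ccdc3, Tgfbi, Adamdec1, Agt and Ncam1 on the higher side and Itih5, Smoc2, Col6a5, Crispld2, Marcks, Meg3, Fzd2, Igf1, Prelp and Junb on the lower side.

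The potassium channel gene Kcnk3 (chr5:30588170-30625271) was found in 13 of 18 and 95 of 178 members, 72.2% and 53.4%. It was found in 7.78% and 6.63% of the matched cells. Its level was 1.45 and 1.54 UMIs per 10000 in members against 0.135 and 0.121 in matched cells, and the 2 libraries were alike. The difference in mean ln value was 0.65 ± 0.07 (SE, limma, n = 2 libraries, adjusted p = 3.1e-06).

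Lama5 (chr2:180176373-180225859) encodes the laminin alpha 5 chain of epithelial basement membranes. Lama5 UMIs were found in 61.1% and 45.5% of members against 7.78% and 7.30% of matched cells. Its level was 1.16 and 1.25 UMIs per 10000 against 0.0965 and 0.110, 12-fold and 11.4-fold higher, and the limma difference was 0.52 ± 0.06 (adjusted p = 1.3e-05). The members held 22.4% and 32.8% of all Lama5 UMIs of their libraries. Plau (chr14:20836660-20843385), which encodes the urokinase plasminogen activator, had the smallest mean difference of the 5 markers. It was found in 38.9% and 25.3% of members against 7.78% and 5.73%, with a difference of 0.23 ± 0.05 (adjusted p = 0.0021).

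Fst (chr13:114452290-114458951) encodes follistatin, a secreted antagonist of activins and BMPs, and Npnt (chr3:132881745-132950291) encodes nephronectin, a basement membrane ligand of integrins. Both differed between the libraries. Fst was found in 3 of 18 members of 10X library 1 and in 104 of 178 of 10X library 2, 16.7% (exact 95% interval 3.58 to 41.4) and 58.4%. Npnt was found in 16.7% and 60.7%. In matched cells Fst was at 0 of 90 and 3.71%, and Npnt at 1.11% and 5.84%. The Fst level was 0.386 and 4.0 UMIs per 10000 in members, at least 13.3-fold higher in 10X library 1 (a floor of 3 UMIs over the 90 matched cells) and 19.3-fold higher in 10X library 2. Outside the gate the Fst level was alike in the 2 libraries, at 0.149 and 0.129. The limma differences were 0.59 ± 0.11 for Fst (adjusted p = 0.0010) and 0.55 ± 0.10 for Npnt (adjusted p = 0.00067). Fst was under the 5% filter in the matched cells and entered this test only through the members, so its call is no support for a difference.

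**Figure D1:**
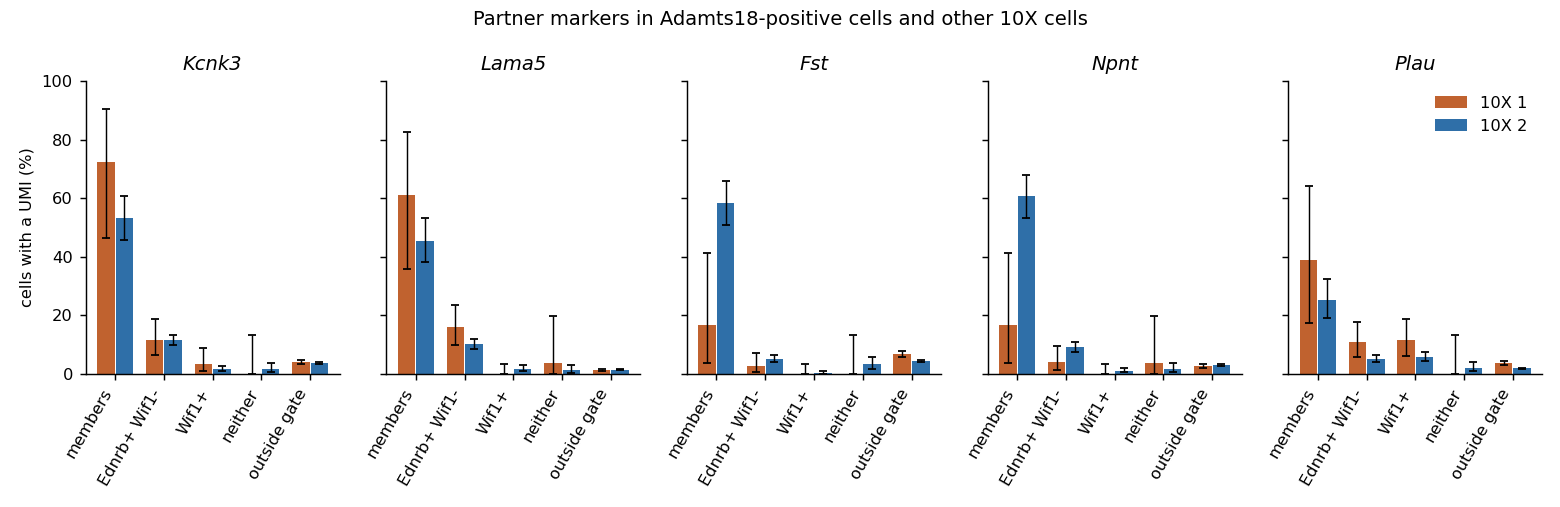
Share of cells with a UMI (y axis, percent) of Kcnk3, Lama5, Fst, Npnt and Plau in all members, in Adamts18- gate cells that were Ednrb+ Wif1-, Wif1+ or neither, and in cells outside the gate, not matched for depth; bars are libraries and error bars exact 95% intervals of counting error. Every gene is highest in the members of both libraries, and Fst and Npnt reach 16.7% in 10X library 1 against 58.4% and 60.7% in 10X library 2.

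Most members carried some of the 5 markers, and few carried all. All 5 were found in 2 of 18 and 15 of 178 members (11.1% and 8.43%) and none in 2 and 19 (11.1% and 10.7%). At least 1 of them was present in 88.9% and 89.3% of members against 20% and 19.9% of matched Sox6+ Pdgfra+ cells, and at least 3 in 6 of 18 and 92 of 178 members (33.3% and 51.7%) against 0 of 90 and 2.70%. Among matched Ednrb+ Wif1- cells without Adamts18, 2.22% and 3.79% had at least 3. These were 2 of 90 and 33 of 870 cells. Among Wif1+ cells 0 of 90 and 0 of 816 had 3. These markers were named with earlier results of these data known, so their calls are a description of the label rather than independent evidence for it.

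**Figure D2:**
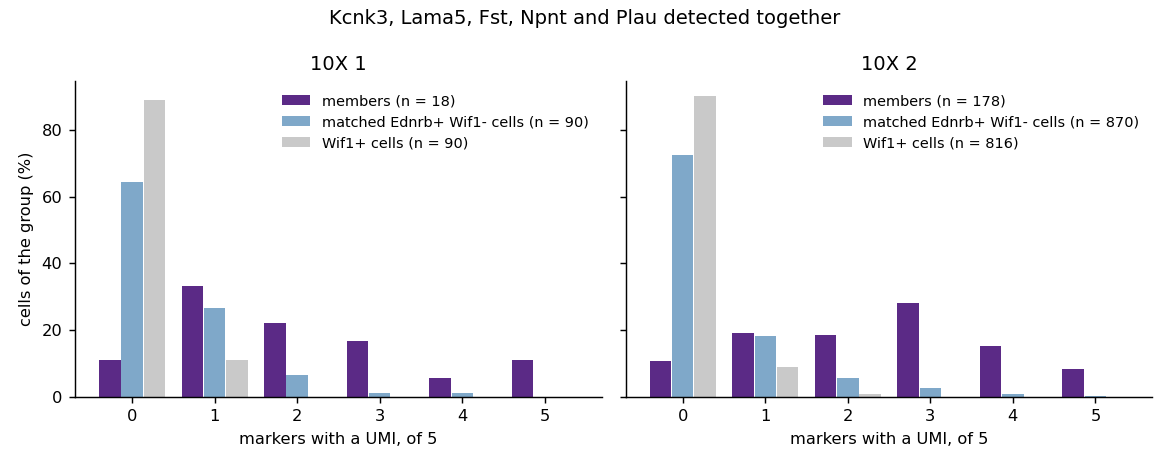
Number of the 5 markers with a UMI in a cell (x axis) against the share of the group's cells (y axis, percent) for members, matched Ednrb+ Wif1- cells and Wif1+ cells of each library. Most cells of the groups without Adamts18 have 0 of the markers, while 33.3% and 51.7% of members have at least 3.

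The shares of members with these transcripts also varied with the number of Adamts18 UMIs, a value that the rule used, and are given as a description of cells within a library. In 10X library 2 the 78 members with 1 Adamts18 UMI and the 100 with more had median depths of 8346 and 8887.5 UMIs. Fst was found in 30.8% of the first and 80.0% of the second. Npnt went from 43.6% to 74.0%, Lama5 from 33.3% to 55.0% and Kcnk3 from 41.0% to 63.0%. All of these shares lay above those of cells at 0 Adamts18 UMIs. In 10X library 1, where the groups were 10 and 8 cells, Lama5 went from 40.0% to 87.5% and Kcnk3 from 60% to 87.5%, while Plau was at 40.0% and 37.5% and Vegfa at 90% and 75%.

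**Figure D3:**
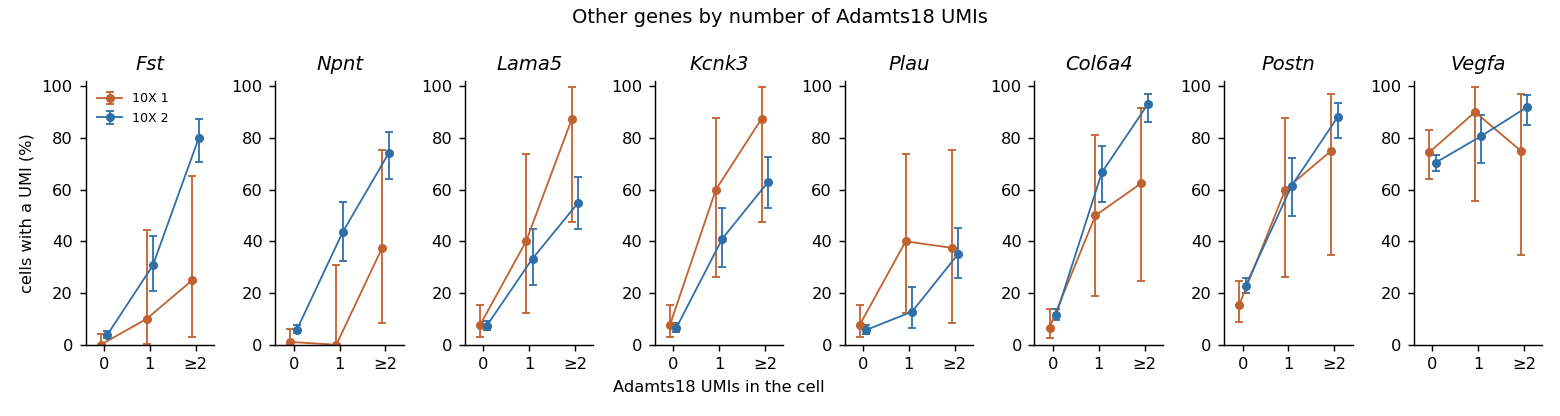
Share of cells with a UMI (y axis, percent, exact 95% intervals) of 8 genes in cells with 0 (depth-matched), 1, and 2 or more Adamts18 UMIs in each 10X library. The steps are cuts on a gene of the rule and intervals cover counting error over cells of 1 library. In 10X library 2 Fst goes from 3.71% through 30.8% to 80.0%.

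Fst also split the members. In 10X library 2 the 104 members with Fst and the 74 without it had median depths of 8630 and 8607 UMIs, and were not otherwise matched. They differed in Adamts18 itself, at 3.70 and 1.59 UMIs per 10000. Members with Fst carried more Npnt (76.9% against 37.8% of cells), Lama5 (60.6% against 24.3%) and Col6a4 (97.1% against 59.5%). Bmp2 stood at 6.38 UMIs per 10000 in members with Fst and 3.18 in those without. Adamdec1, an abundant gene of villus fibroblasts, was at 96.6 and 106 and Vegfa at 3.34 and 2.78. In 10X library 1 the 3 members with Fst had 7.85 Col6a4 and 11.2 Postn UMIs per 10000, and the 15 without had 1.61 and 2.13. Vegfa there was at 5.14 and 2.70. Agt went the other way, at 2.72 and 3.85, and Kcnk3 was found in 66.7% and 73.3%. These splits used measured values and were not tested.

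Since all members expressed Ednrb and few expressed Wif1, the closer comparison was within the Ednrb+ Wif1- gate. There 18 and 174 members were set against 90 and 870 matched Adamts18- cells. Of the Wif1+ cells compared below, 63.3% and 75% also had an Ednrb UMI. Ednrb itself was 2.57-fold and 3.05-fold higher in members than in the matched gate cells. Smoc2, Fzd2, Ednra, Chrd and Des were lower in members than in Wif1+ cells. Within the gate all of them but Des were again lower. Whether the matched cells include cells of the Wif1+ kind without a Wif1 UMI, and their part in these differences, was not tested. Of 1731 genes tested, 115 were higher (6.64%) and 114 lower (6.59%), all 229 with the same sign in both libraries, and the median difference of all tested genes was -0.01. Kcnk3 (0.62 ± 0.05, adjusted p = 9.3e-05), Lama5 (0.45 ± 0.05, adjusted p = 0.00028), Fst (0.57 ± 0.15, adjusted p = 0.028), Npnt (0.52 ± 0.13, adjusted p = 0.020) and Plau (0.21 ± 0.03, adjusted p = 0.0019) were higher here too. As markers named with earlier results of these data known, their calls describe the label and are no further support for it. Between the libraries the difference ran from 0.18 (10X library 1) to 0.96 (10X library 2) for Fst and from 0.20 to 0.84 for Npnt. Across 13 fits, counting the reported settings, the alternatives and the plates, Kcnk3 and Lama5 passed in 12, Plau in 10, Npnt in 9 and Fst in 6, the last with adjusted p from 3.6e-09 to 0.36. With the 2 Smartseq2 plates added as further libraries, 3 of 1731 genes passed within the gate (384 at an unadjusted p under 0.05), and 0 of 1717 passed in the first comparison, where 309 had an unadjusted limma p under 0.05 and the 10X libraries alone gave 318 calls. On those plates Adamts18 was above 0 in 95 of 291 and 60 of 302 Sox6+ Pdgfra+ cells at a median of 0.0346 and 0.0813, while the lowest value of a 10X member was 0.464.

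**Figure D4:**
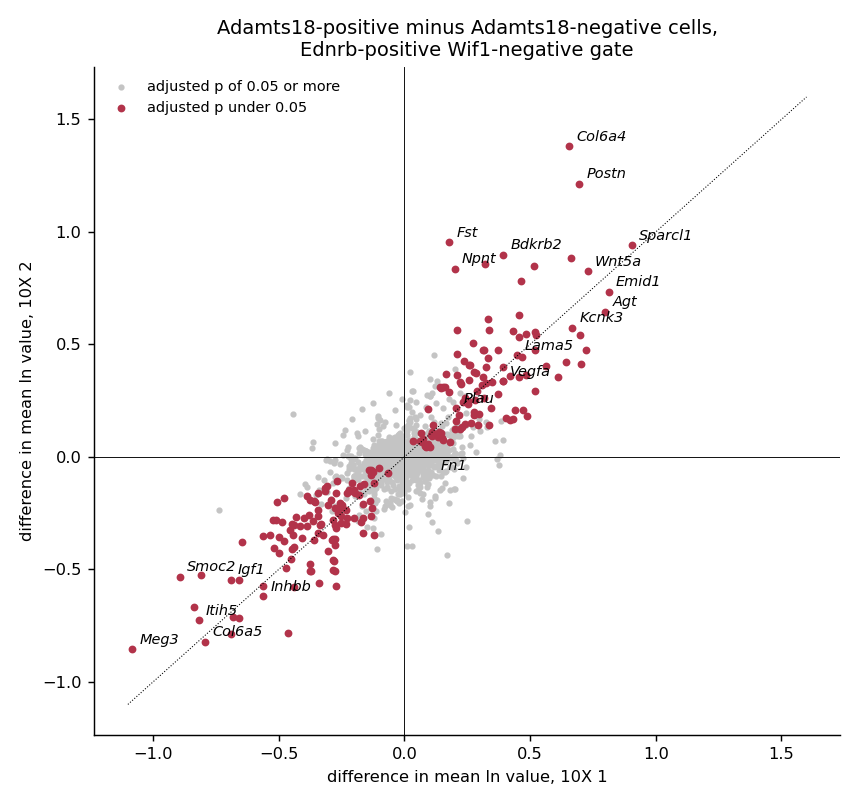
Difference in mean ln value between members and matched Adamts18- cells of the Ednrb+ Wif1- gate in 10X library 1 (x axis) and 10X library 2 (y axis), 1 point per tested gene, red where the limma adjusted p was under 0.05; the dotted line marks equal differences. All 229 red points lie in the 2 quadrants of equal sign, and Fst, Npnt, Bdkrb2 and Col6a4 lie above the line.

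Of 15 tested genes of the basement membrane list 7 were higher and 2 lower, with a median difference of 0.25, beside 6.64% higher and 6.59% lower of all tested genes. The list was chosen with earlier results of these data known and includes the markers Lama5 and Npnt, so the count is a description. Of its 32 genes 17 were present in the data at hand. The matricellular gene Sparcl1 stood at 3.48 and 4.27 UMIs per 10000 in members and at 0.664 and 0.976 in matched gate cells, 5.24-fold and 4.38-fold higher (limma 0.92 ± 0.06, adjusted p = 1.2e-05). Members held only 1.41% and 3.39% of all Sparcl1 UMIs of their libraries. Smoc1, which encodes a basement membrane protein that binds calcium, was 2.52-fold and 3.47-fold higher (0.36 ± 0.05, adjusted p = 0.0011). Its relative Smoc2 went the other way, at 0.241 and 0.250 UMIs per 10000 against 2.83 and 1.69 (limma -0.71 ± 0.09, adjusted p = 0.00065). Smoc1 and Smoc2 thus differed in direction. The collagen IV chain gene Col4a5 was higher by 0.30 ± 0.08 (adjusted p = 0.025). The laminin chain genes Lamb1 and Lama4 did not pass within the gate, at 0.25 ± 0.09 (adjusted p = 0.11) and 0.09 ± 0.10 (adjusted p = 0.62).

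Of 30 tested interstitial matrix genes 8 were higher and 5 lower (6.64% and 6.59% of all tested genes), with a median of 0.01. Col6a4, which encodes a collagen VI chain, rose from 0.567 and 0.510 UMIs per 10000 in matched cells to 2.61 and 6.14 in members (1.02 ± 0.14, adjusted p = 0.00098; 0.65 and 1.38 by library), and the members held 22.2% and 47.0% of all Col6a4 UMIs of the libraries. Col6a5, another collagen VI chain gene, fell from 3.1 and 4.27 to 1.06 and 1.19. The collagen VI chains therefore differed in direction. Postn, the matricellular protein periostin, stood at 3.57 and 8.40 in members against 0.947 and 1.21 (0.95 ± 0.11, adjusted p = 0.00043). Members held only 1.38% and 5.54% of Postn UMIs, since other cells of the libraries express it.

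Tnc (tenascin C) was higher at 22.1 and 22.1 against 15.2 and 14.2 UMIs per 10000 (0.42 ± 0.09, adjusted p = 0.010), and Tgfbi was higher at 13.7 and 15.3 against 8.23 and 6.99. Fn1 did not pass, at 31.0 and 24.2 UMIs per 10000 in members and 26.7 and 25.4 in matched gate cells. The Fn1 difference of 0.02 ± 0.09 (limma adjusted p = 0.93) was positive in 10X library 1 and negative in 10X library 2. Of 25 tested protease and inhibitor genes 2 were higher, Plau and Adamdec1, and Adamts4, Cst3 and Prss23 were lower, beside 6.64% and 6.59% of all tested genes. Adamts4, another secreted metalloprotease of the family, was at 0.386 and 1.19 UMIs per 10000 in members against 2.06 and 1.63 (limma -0.33 ± 0.09, adjusted p = 0.036). Adamts5 did not pass (-0.09 ± 0.06, adjusted p = 0.39).

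Of 22 tested genes acting on vessels 9 were higher, 2 were lower and 11 did not pass, with a median difference of 0.05 (6.64% of all tested genes were higher and 6.59% lower). Vegfa stood at 3.09 and 3.13 UMIs per 10000 in members against 1.74 and 2.0 (1.78-fold and 1.56-fold, limma 0.36 ± 0.07, adjusted p = 0.0058). Vegfd, which encodes a ligand of the receptor VEGFR3, stood at 0.483 and 0.95 against 0.0781 and 0.198 (0.29 ± 0.05, adjusted p = 0.0023). Both growth factors were higher in the members than in the matched gate cells of both libraries, and both were also found in the matched cells. Members held 3.73% and 5.25% of all Vegfa UMIs but only 0.777% and 2.62% of all Vegfd UMIs. Their share of all UMIs was 0.930% and 1.56%, so most Vegfd lay in other cells.

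The semaphorin genes Sema3f and Sema6a, which encode guidance molecules, rose in the same cells. Sema3f was at 3.09 and 3.21 against 1.6 and 1.5 UMIs per 10000 (limma 0.51 ± 0.07, adjusted p = 0.00076) and Sema6a at 2.13 and 1.93 against 0.801 and 0.674. Agt, the angiotensinogen gene, was found in 94.4% and 81.0% of members and in 51.1% and 45.1% of matched gate cells, with a difference of 0.72 ± 0.07 (limma adjusted p = 0.00028). Bdkrb2, the bradykinin B2 receptor gene, stood at 1.69 and 3.55 against 0.752 and 0.730 UMIs per 10000 (limma 0.65 ± 0.10, adjusted p = 0.0022), a difference of 0.39 and 0.90 by library. F3 (tissue factor, the starter of coagulation) and Procr (the endothelial protein C receptor, which limits it) were higher by 0.39 ± 0.07 and 0.48 ± 0.08 (limma adjusted p = 0.0040 for each), and each passed in 8 of 13 fits. Ednra, the other endothelin receptor gene, was lower at 1.59 and 2.29 against 3.6 and 3.75, the opposite of Ednrb, which the gate used.

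Among BMP and activin genes 2 of 15 tested were higher and 2 lower (6.64% and 6.59% of all tested genes). Bmp2 stood at 2.80 and 5.03 UMIs per 10000 against 1.35 and 1.66 (limma 0.59 ± 0.11, adjusted p = 0.0056), with a difference of 0.32 in 10X library 1 and 0.86 in 10X library 2. Bmp5 and Bmp7, which mark subepithelial fibroblasts in general, did not pass, at 9.42 and 10.7 against 9.10 and 9.57 for Bmp5 and 4.49 and 3.76 against 3.73 and 2.61 for Bmp7. Inhbb, which encodes an activin subunit, was lower at 0.724 and 0.180 against 1.99 and 1.72 (limma -0.59 ± 0.06, adjusted p = 0.00033). The BMP antagonist gene Chrd (chordin) was lower, at 0.338 and 0.302 against 1.03 and 0.849.

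Of 10 tested WNT pathway genes 3 were higher and 3 lower, beside 6.64% and 6.59% of all tested genes. Wnt5a, a ligand of the branch that does not act through beta-catenin, was found in 100% and 95.4% of members, at 4.59 and 4.87 UMIs per 10000 against 1.97 and 1.82 (limma 0.78 ± 0.08, adjusted p = 0.00028). Wnt4 was higher by 0.28 ± 0.08 (limma adjusted p = 0.045), and passed in 4 of 13 fits. Sfrp1, a secreted WNT inhibitor gene, was higher in ln value, but its level in 10X library 2 was 4.41 against 4.31 UMIs per 10000. The receptor genes Fzd1 and Fzd2 and the inhibitor gene Dkk2 were lower.

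Of 13 tested growth factor and trophic genes 4 were higher, Enho, Fgf9, Nrg1 and Ntf3, and Igf1, Il34 and Cxcl14 were lower (6.64% and 6.59% of all tested genes). Enho, which encodes the secreted peptide adropin, stood at 2.08 and 2.69 UMIs per 10000 against 0.977 and 1.20 (limma 0.54 ± 0.06, adjusted p = 0.00043). Nrg1, the ligand of ERBB receptors neuregulin 1, stood at 0.724 and 1.78 against 0.518 and 0.540 and passed in 7 of 13 fits. Igf1, a growth factor of many stromal cells, fell to 0.580 and 1.02 against 2.36 and 2.69 (-0.62 ± 0.07, adjusted p = 0.00046). Of 11 channel and receptor genes 6 were higher, among them Ano1, a chloride channel gene, at 0.435 and 0.693 against 0.0684 and 0.0673, and Kcnj8, a subunit of ATP-sensitive potassium channels, was lower. Ano1 was rare in the matched gate cells, so its call is given as a description.

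Among transcription factors and hedgehog targets, 3 of 13 passed, all higher (6.64% of all tested genes). The telocyte factor gene Foxl1 was at 0.918 and 1.47 UMIs per 10000 against 0.459 and 0.555 (limma 0.33 ± 0.06, adjusted p = 0.0042), and Tox and Sox11 were the others. Ptch1, the hedgehog receptor gene that the pathway itself induces, was at 8.79 and 11 against 7.73 and 7.15 and did not pass (adjusted p = 0.068). Of 14 contractile genes 0 passed within the gate by limma. Acta2 was at 28.8 and 26.1 against 28.8 and 25.1, and Des at 0.338 and 0.398 against 0.488 and 0.641.

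**Figure D5:**
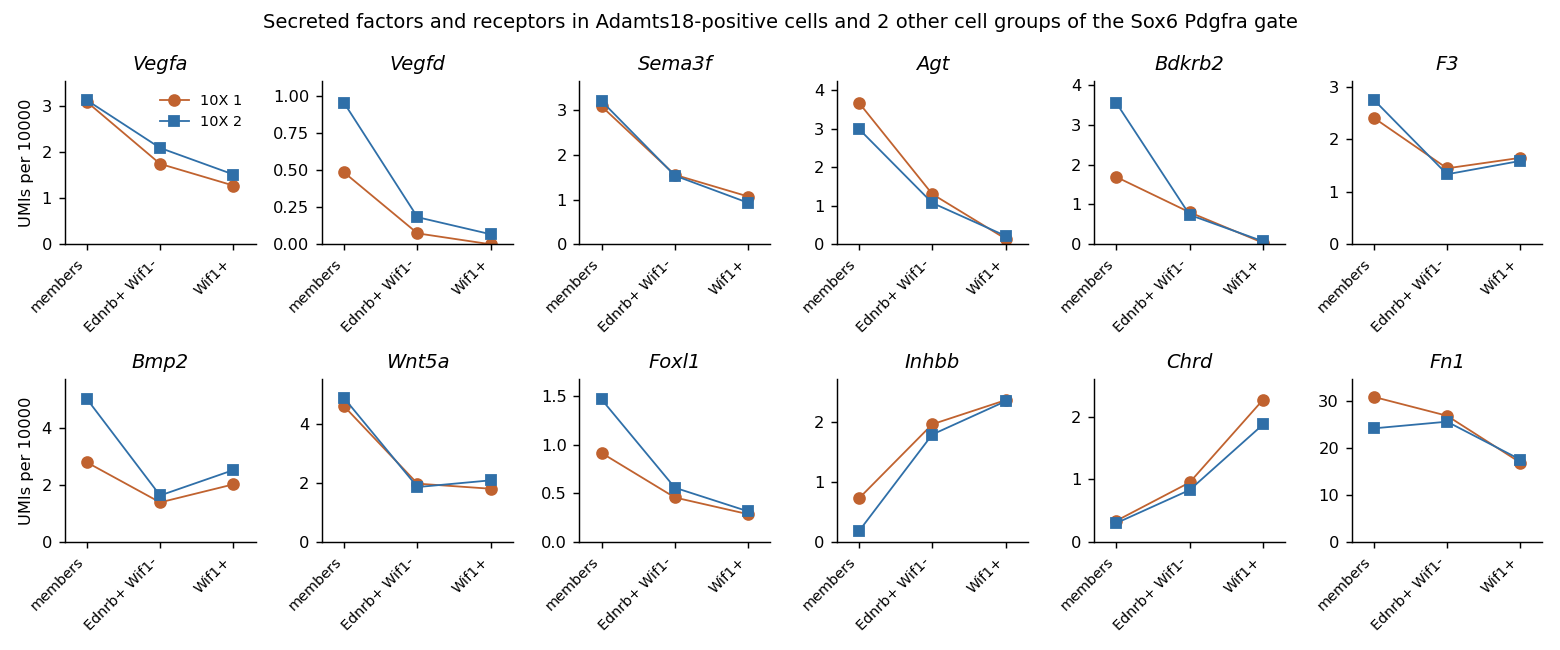
UMIs per 10000 (y axis) of 12 genes in Ednrb+ Wif1- members and in all Adamts18- gate cells that were Ednrb+ Wif1- or Wif1+, not matched for depth; symbols are libraries and lines join the groups of a library. Vegfa, Vegfd, Sema3f, Agt, Bdkrb2 and Foxl1 step down from the members to the Wif1+ cells, Inhbb and Chrd step up, and Fn1 is lowest in the Wif1+ cells.

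Of 16 tested immediate early and heat shock genes 0 were higher, 8 were lower and 8 did not pass within the gate (6.59% of all tested genes were lower), and 0 were higher and 11 lower against all matched Sox6+ Pdgfra+ cells (10.4% of all tested genes were lower). Junb was at 1.35 and 7.48 UMIs per 10000 in members against 8.34 and 12.4, and Fos at 0.918 and 5.94 against 9.06 and 10.4. The heat shock gene Hspa1a stood at 3.14 and 4.92 against 7.19 and 7.86. For these 3 genes the fold was larger in 10X library 1. These genes are also induced by tissue digestion, and their part in the other differences was not tested.

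The epithelial, immune, endothelial and glial markers were at or near 0 in the members. The 10 epithelial markers summed to 0 UMIs in the members of 10X library 1 and to 6 UMIs in those of 10X library 2, or 0.0375 per 10000, against 0.0195 to 0.123 in the matched groups. The 9 immune markers were at 0.0966 and 0.106 per 10000 in members and between 0.147 and 0.328 in the matched groups, with Ptprc at 0. Lyz2, a lysozyme gene of that list, was lower than in matched Sox6+ Pdgfra+ cells (-0.08 ± 0.03, limma adjusted p = 0.042) and Wif1+ cells (-0.15 ± 0.03, adjusted p = 0.0013). The 6 endothelial markers were at 0.0483 and 0.0750 against 0.0965 to 0.156, with Cdh5, Kdr, Emcn and Tie1 at 0, and the 4 glial markers were at 0 and 0.0688 against 0.0488 to 0.226. The 5 crypt fibroblast markers that the table holds were at 0.145 and 5.27 per 10000 in members and at 1.06 and 6.84 in matched Sox6+ Pdgfra+ cells, so this list followed the library. The 5 smooth muscle markers were at 2.37 and 2.50 per 10000 in members and between 2.34 and 2.70 in the matched groups, and the 3 pericyte markers of the table at 5.31 and 6.21 against 3.37 to 6.52. Single genes of these lists differed from matched Sox6+ Pdgfra+ cells by limma: the pericyte gene Cspg4 (0.31 ± 0.09, adjusted p = 0.026) and the smooth muscle list's Hhip (0.10 ± 0.03, adjusted p = 0.048) were higher and Des was lower (-0.19 ± 0.06, adjusted p = 0.044). In 10X library 1 Hhip had 0 UMIs in those matched cells and 1 UMI in the members, so its call is no support for a difference. Cspg4 and the pericyte gene Rgs5 were also higher than in matched Wif1+ gate cells (0.32 and 0.50), and none of these 4 passed against matched Ednrb+ Wif1- cells. The 3 markers of interstitial cells of Cajal were at 2.22 and 2.59 against 2.62 to 3.43, although of them Ano1 was higher and Etv1 lower (-0.32 ± 0.09, limma adjusted p = 0.023) than in matched Sox6+ Pdgfra+ cells. Ano1 was found in 0 of 90 and 0.613% of Wif1+ cells. Its share in the matched cells may lie under the 5% filter, so its call is no support for a difference. The 5 mesothelial-like markers were at 1.11 and 2.22 against 0.733 to 1.48, and of them Penk, a proenkephalin gene, was higher than in matched Sox6+ Pdgfra+ cells (0.32 ± 0.08, limma adjusted p = 0.0055). The 4 villus fibroblast markers were at 89.6 and 108 against 50.7 to 83.3. Their members split: against matched Sox6+ Pdgfra+ cells Adamdec1, a disintegrin protease gene, was higher at 87.6 and 101 UMIs per 10000 against 42.7 and 52.3, while the chemokine gene Ccl11 was lower at 1.06 and 4.71 against 4.11 and 7.95 and the apolipoprotein gene Apoe lower at 0.966 and 2.03 against 3.79 and 4.18. The part of these markers in the other differences was not tested.

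Against Wif1+ cells, the other large group of the gate, the members differed most widely. Of 1731 genes, 236 were higher in the Ednrb+ Wif1- members (13.6%) and 281 lower (16.2%) by limma. In 10X library 2 the 816 Wif1+ cells were too few to match, and their median of 9691.5 UMIs was above the 8590.5 of the members. Lama5 was at 0 UMIs in 90 Wif1+ cells of 10X library 1, which makes the members at least 40.3-fold higher (a floor of 3 UMIs over those cells), and was 68.8-fold higher in 10X library 2. Kcnk3 was 37.8-fold and 64.5-fold higher.

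Several genes that did not separate members within the Ednrb+ Wif1- gate did so here. Fn1 was at 31.0 and 24.2 UMIs per 10000 in members against 17.4 and 17.6 in Wif1+ cells (limma 0.42 ± 0.09, adjusted p = 0.0047), and Des was lower at 0.338 and 0.398 against 1.72 and 1.32 (-0.40 ± 0.06, adjusted p = 0.00044). Of the other smooth muscle and contractile genes Myh11 (0.38, adjusted p = 0.013), Synpo2 (0.20, adjusted p = 0.035) and Hhip (0.12, adjusted p = 0.020) were higher than in Wif1+ cells by limma, and Cald1 was lower (-0.30, adjusted p = 0.02). Whether these differences exceed those within the gate was not tested. Vegfa was 2.37-fold and 2.07-fold higher than in Wif1+ cells (0.51 ± 0.07, adjusted p = 0.00025) and Wnt5a 2.72-fold and 2.33-fold (0.79 ± 0.08, adjusted p = 3.4e-05). Bmp2 was higher by 0.33 ± 0.11 (limma adjusted p = 0.047), by 0.10 in 10X library 1 and 0.56 in 10X library 2. It passed in 6 of 13 fits. The 2 gate comparisons share the members, so their calls are not independent.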

How the data were processed

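The deposited table holds natural log values, which the authors made per 10X cell as ln(1 + UMI / total UMI x 10000) after Cell Ranger 3.1.0 (mm10); their Smartseq2 values were integrated onto these. The table at hand has 3891 complete genes, and others are not analysed here. Dividing each cell's back-transformed values by its lowest one above 0 gave back its UMIs (100% of values whole within 0.01). Members and gene lists were chosen with earlier results of these data known. Mean ln values per library and group were compared with limma 3.58.1 (R 4.3.3), with library as a block, since both groups came from the same library, a mean trend and Benjamini-Hochberg adjustment, for genes with a UMI in 5% of cells of a group. Each member had 5 cells of nearest total UMI. Named genes were the given markers, the list members and the 10 largest calls per direction. No doublets were removed in the reported fits (Scrublet, Scanpy 1.11.5, as an alternative). On UMIs simulated for the first comparison (1717 genes) with no added spread between libraries, 85 of 100 genes changed 4-fold and 47 of 100 changed 2-fold were recovered, and 5.71% of calls were false. Gene coordinates are GENCODE M21. Alternatives covered filters, matching, thinning, trend, block, doublets, other lineages, plates and weights.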

Additional observations from a re-analysis of the deposited data

How the results depend on the processing

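The 318 calls against matched Sox6+ Pdgfra+ cells became 204 with 1 matched cell, 176 at 2000 UMIs per cell, 182 without the mean trend, 80 without the replicate block and 0 with the plates added (309 at an unadjusted limma p under 0.05). The 229 calls within the Ednrb+ Wif1- gate became 135, 78, 138, 58 and 3 under these settings and 29 without a filter on low values. The 517 calls against Wif1+ cells became 245 at 2000 UMIs, 278 without the block, 177 with the plates and 238 without the filter. The other settings moved no count by over 1.5 times; among them, weighting libraries by their number of cells was chosen after seeing the data and gave 336, 306 and 563 calls. All 80 and 58 calls without the block were also calls with it. Apart from the thinned and plate fits, every called gene that was tested kept its sign.

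Within the gate Vegfa, Vegfd, Bmp2, Chrd, Tnc and Junb passed in 9 of 13 fits each, Col4a5 and Fos in 8 and Hspa1a in 7. Of the named gene differences, those that changed sign had not passed: within the gate, Bmp7 to -0.00867 and Fn1 to -0.0129 at 2000 UMIs, Fn1 to -0.062 and Acta2 to -0.0181 with cell weights, and Des to 0.0168 with 1 matched cell and 0.0606 at 2000 UMIs. A limit of 2 Adamts18 UMIs was not run, since it leaves 8 members in 10X library 1. Leaving out a library leaves 1 replicate and no test of a count, and the per-library differences in the text are those values. 10X library 1 has 18 members against 178, so its values carry the wider counting error. The causes of these changes were not tested.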

Other observations

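Cells with an Adamts18 UMI outside the Sox6 Pdgfra gate numbered 3 of 21 and 34 of 212. Of these, 3 and 33 had Pdgfra and no Sox6 UMI, 0 had Sox6 alone, and 1 in 10X library 2 had neither. Ednrb was found in 2 of the 3 and 24 of the 34, and their median depth of 7497 and 7824 UMIs was below that of the members (11565.5 and 8630). Among members, 0 of 18 and 34 of 178 (19.1%) had one of the highest doublet scores of their library, against 4.17% and 19.4% of Adamts18- cells of the Ednrb+ Wif1- gate and 2.04% and 11.5% of all cells. Without those cells 391 genes passed against matched Sox6+ Pdgfra+ cells by limma, 316 of them among the 318.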
